A study of Mus musculus with 160 samples.

Results

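Quadriceps muscle of SJL mice was set directly against quadriceps of A/J mice, inbred strains that each carry a mutation of the dysferlin gene Dysf. The comparison took the muscle libraries of SJL mice 49 to 64 (8 libraries) and of A/J mice 17 to 32 (8 libraries), by the strain and tissue in the labels. These are 16 of the 160 RNA-seq libraries of the study and 16 of its 32 quadriceps libraries. All mice were male, were moved from chow to the test diet at 12 weeks of age and were killed at 18 weeks after 6 weeks on it. The diets were mouse versions of American, Mediterranean, vegetarian and vegan human diets, with 2 mice per strain and diet in each group, so that diet was balanced between the strains and entered the fit as a covariate. C57BL/6J and DBA/2J quadriceps (8 libraries each, same design) were used to describe levels only; C57BL/6J reads were aligned with another mismatch setting than those of the other strains.

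Dysferlin is a membrane-anchored protein of muscle fibres with repeated calcium-binding C2 domains. It brings vesicles to tears in the sarcolemma so that they can be patched, together with annexins, caveolins, MG53 (Trim72), EHD proteins and calpains. Its loss in humans causes limb-girdle and distal muscular dystrophies, in which fibres die, are cleared by macrophages and are rebuilt by satellite cells. The A/J allele is known as a retrotransposon insertion in an intron of Dysf. The SJL allele is known as a splice-site change that leaves out 171 in-frame bases of the message. Each strain is 1 inbred genotype, so the dysferlin allele and every other variant of that strain cannot be told apart here. Neither group has a wild-type Dysf control on its own background.

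The stretch that the SJL allele is known to leave out is shown because it sets what a gene count can see. In the C57BL/6J reference (GRCm39, GENCODE vM39) the only Dysf exon of 171 bases is exon 45 of 55, at chr6:84166666-84166836 on the plus strand. All of it is coding, with the length of 57 codons, and it begins inside a codon. The exon is in capitals, with 15 intron bases in lower case on each side.
Dysf exon 45: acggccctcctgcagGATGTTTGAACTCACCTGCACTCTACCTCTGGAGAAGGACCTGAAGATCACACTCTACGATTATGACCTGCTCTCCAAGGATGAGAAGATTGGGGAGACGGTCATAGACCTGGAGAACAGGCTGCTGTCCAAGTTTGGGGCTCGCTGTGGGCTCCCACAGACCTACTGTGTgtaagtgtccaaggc
Counts were summed over the whole gene (chr6:83985345-84188042), so messages with and without this exon were counted alike and the splice form was not analysed here.

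Sequencing depth was alike in the 2 groups, with 21.3 to 30.42 M counts per A/J library and 20.49 to 30.26 M per SJL library (M stands for 1e6). Levels are in CPM, counts scaled to a library of 1 M. The summed level of 10 skeletal muscle genes lay between 87600 and 158000 CPM in A/J and between 100000 and 166000 CPM in SJL, and none of the 10 differed between the strains. Some libraries stood apart. Liver transcripts were present in several quadriceps libraries: albumin (Alb) stood at 0.0105 to 28.1% of its liver level in A/J and at 0.291 to 2.2% in SJL, and passed 10% in A/J mice 17 (19.4%) and 32 (28.1%). None of 15 liver genes passed the test, with a median log2 difference of -2.37 (SJL minus A/J), but 14 of them did without A/J mouse 24, the library with the least Alb. SJL mouse 64 was the highest SJL library at 30.8% and the lowest at 34.3% of the genes tested, where the other 7 ranged from 5.15 to 16.4% and from 6.96 to 12.5%, and it had 6.85% mitochondrial reads against 8.98 to 10.3%. Several results moved without these libraries, and such values are given beside them. In bulk tissue, fewer cells of a type and less RNA per cell cannot be told apart.

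**Figure D1:**
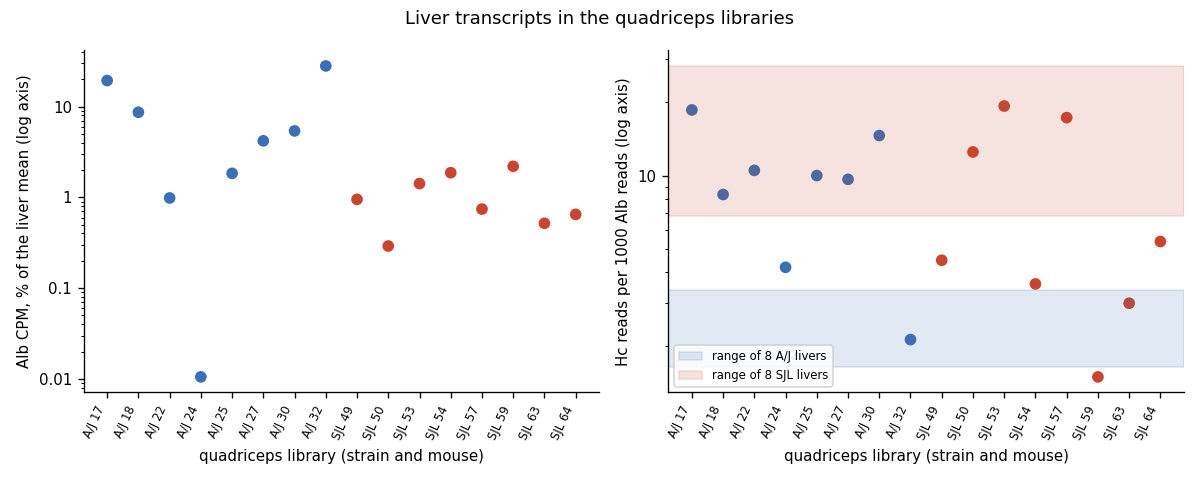
Left, Alb level of each quadriceps library as a percent of the liver mean (log axis). Right, reads of Hc, the complement C5 gene, per 1000 Alb reads in the same libraries (log axis), with the range of 8 A/J and 8 SJL livers shaded. A/J mouse 32 was the only A/J muscle library inside the A/J liver range of 1.64 to 3.4. SJL muscle libraries ranged from 1.49 to 19.3, against 6.84 to 28.2 in SJL livers.

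The liver transcripts in muscle often had other proportions than those in liver of the same strain. A/J is known to carry a mutation of Hc, and its livers held 1.64 to 3.4 Hc reads per 1000 Alb reads, against 11.6 to 22.0 in C57BL/6J livers and 6.84 to 28.2 in SJL livers. In A/J quadriceps the ratio was 2.12 in mouse 32 but 18.6 in mouse 17, and 7 of 8 libraries were above the highest A/J liver. Mouse 24 held only 238 Alb reads, so its ratio is imprecise. In SJL quadriceps the Hc ratio ranged from 1.49 to 19.3, with a median of 4.93 below the SJL liver range. Cyp2c23, a cytochrome P450 gene, stood at 0.249 to 0.46 reads per 1000 Alb reads in A/J livers, and all 8 A/J muscle libraries were above that, from 0.619 in mouse 32 upward. In SJL the Cyp2c23 ratio ranged from 1.24 to 12.5 in muscle and from 4.44 to 6.43 in livers. Genes made mostly in liver are therefore not read as differences of muscle below. Where the reads came from was not tested.

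Of 19643 genes tested with edgeR, 5426 (27.6%) passed a Benjamini-Hochberg adjusted p of 0.05, 3130 higher in SJL (15.9%) and 2296 higher in A/J (11.7%). Such genes are called changed below, and log2 differences are always SJL minus A/J. The median over all genes was 0.001. Of the genes called, 2029 differed over 2-fold and 1512 had no overlap between the 8 values of each strain. Counts of list members are to be read against these shares. Leaving out 1 library moved the number called between 4514 (without SJL mouse 49) and 6681 (without SJL mouse 64), and it was 4483 without A/J mice 17 and 32.

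The difference in Dysf itself was large. Dysf stood at 11.5 CPM in the lowest, 14.5 in the median and 17.9 in the highest A/J library, and at 111, 119 and 128 CPM in SJL. The 2 groups lay far apart, with a mean of 14.7 ± 1.92 CPM in A/J against 120 ± 5.59 CPM in SJL (SD, n = 8 each). The log2 difference was 3.04 (SE 0.08, edgeR adjusted p = 3.25e-12), higher in SJL under all 4 diets. The mean was 81.9 ± 23.2 CPM in C57BL/6J and 66.2 ± 11.7 CPM in DBA/2J, so in the mean A/J was below and SJL above both strains, neither of which is known for a Dysf mutation. The same direction was found in liver (2.41), brown fat (2.82), subcutaneous fat (1.43) and visceral fat (1.82), each past the threshold. The difference in quadriceps minus that in liver was 0.56 and missed the threshold (edgeR adjusted p = 0.0532).

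**Figure D2:**
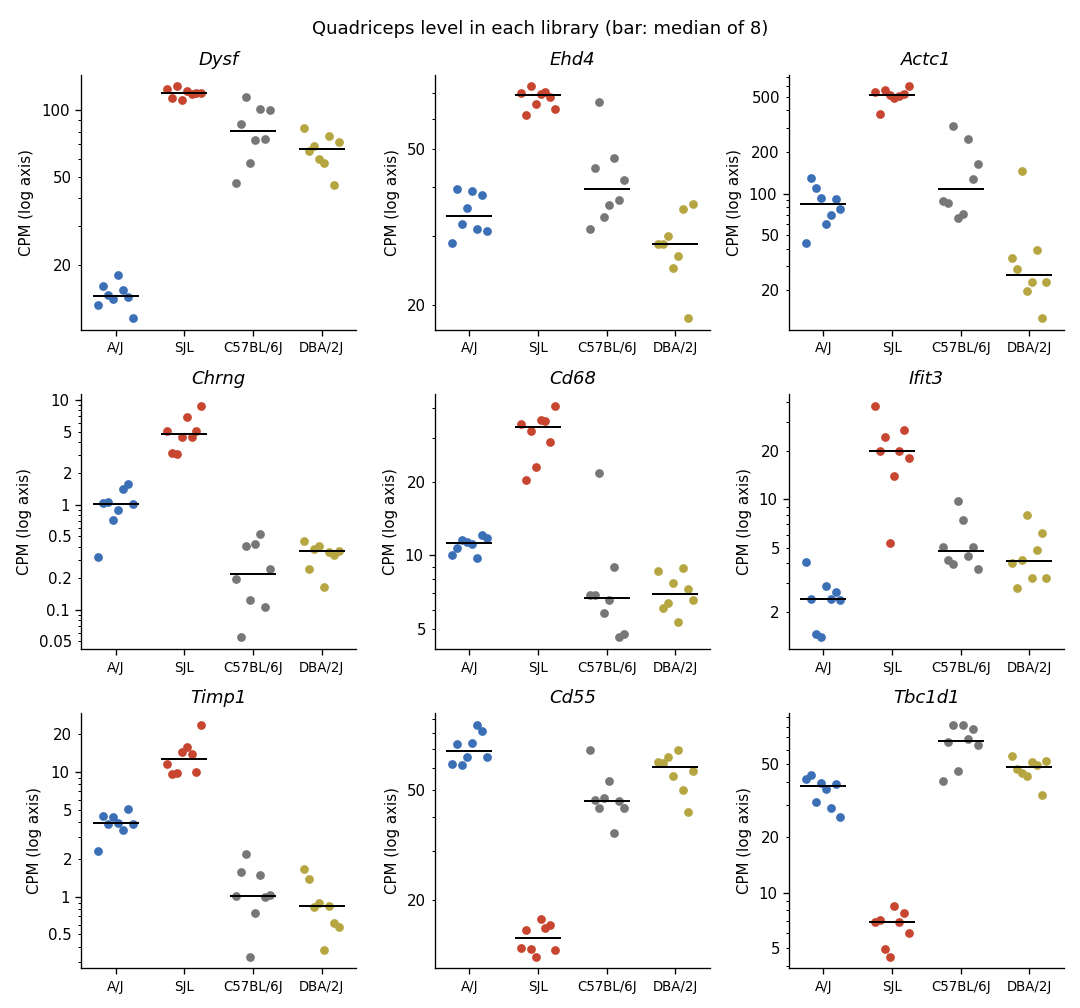
CPM of 9 genes in each quadriceps library of 4 strains, on log axes, 1 point per mouse and a bar at the median of 8. Dysf was lowest in A/J and highest in SJL, at medians of 14.5 and 119 CPM. Chrng and Timp1 were highest in SJL with A/J above C57BL/6J and DBA/2J in the median, and Cd55 and Tbc1d1 were lowest in SJL. For Ehd4, Actc1 and Ifit3 the A/J median was below that of C57BL/6J, and for Ifit3 also below that of DBA/2J.

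Of 34 membrane repair genes, a list that includes Dysf itself, 14 were higher in SJL and 2 lower, with a median log2 difference of 0.23. Dysf is among the 14. Ehd4, a membrane-shaping ATPase of the EHD family, stood at 28.8, 33.8 and 39.6 CPM (lowest, median, highest) in A/J and at 61.2, 68.8 and 72.6 CPM in SJL. Among the list genes higher in SJL it came after Dysf in size, at 0.97 (SE 0.08, adjusted p = 3.23e-07), with no overlap. The annexins bind phospholipid in the presence of calcium and plug the wound: Anxa1 (0.67), Anxa2 (0.61) and Anxa5 (0.39) were higher in SJL, each with no overlap. Myof, the ferlin myoferlin of fusing myoblasts and regenerating fibres, ranged from 6.67 to 13.8 CPM in A/J and from 11.4 to 27.0 CPM in SJL (0.88, adjusted p = 0.000871). Fer1l6, another ferlin, went the other way, from 5.89 ± 1.05 CPM in A/J to 2.71 ± 0.435 CPM in SJL (-1.12, adjusted p = 1.46e-05).

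Other genes whose loss causes related muscle disease did not differ past the threshold. Capn3, the muscle calpain of limb-girdle dystrophy, stood at 73.1 ± 7.75 CPM in A/J and 75.1 ± 4.57 CPM in SJL, and Ano5, a membrane scramblase, at 135 ± 19.5 and 148 ± 26.6 CPM. Trim72, the MG53 protein that nucleates the repair patch, was at 114 ± 20.7 and 140 ± 9.65 CPM (0.31, adjusted p = 0.0193) and no longer passed without A/J mice 17 and 32 (adjusted p = 0.0779). The count of 14 higher fell to 9 without those mice (with 1 lower), or without A/J mouse 32 alone. Dysf, Ehd4, Anxa1, Anxa2, Anxa5 and Myof kept their call without the pair.

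Genes of new and regenerating fibres were higher in SJL: 17 of 30 list genes, with 1 lower and a median of 0.64 (15 and 2 without A/J mice 17 and 32). Actc1, the cardiac actin of fetal and regenerating muscle, ranged from 44.2 to 129 CPM in A/J (median 84.3) and from 378 to 595 CPM in SJL (median 518). All SJL libraries were above all A/J libraries, by 2.62 on the log2 scale (SE 0.18, adjusted p = 7.55e-08). Myl4, an embryonic myosin light chain, rose from 10.5 ± 1.9 to 50.7 ± 17.5 CPM (2.26, adjusted p = 7.89e-07) and Ankrd1, a stretch and injury response gene, from 11.6 ± 1.73 to 43.4 ± 13.8 CPM (1.88, adjusted p = 5.46e-07). Mymk, the myomaker that fuses myoblasts, was at 2.13 ± 0.553 and 9.57 ± 2.45 CPM (2.17). Runx1, a factor induced by denervation and injury, was at 3.75 ± 0.599 and 10.9 ± 2.43 CPM (1.52). None of these 5 overlapped between the strains.

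Not every gene of this list was higher. Myh3, the embryonic myosin heavy chain, ranged from 23.4 to 76.0 CPM in A/J and from 26.5 to 101 CPM in SJL and did not pass (-0.32, adjusted p = 0.455). The highest SJL value, 101 CPM in mouse 57, was the only one above the A/J range. Myh8, the perinatal myosin, did not pass either (-0.38, adjusted p = 0.0744). Myog, the differentiation factor myogenin, was higher in SJL (10.6 ± 3.43 against 18.0 ± 4.53 CPM, 0.76, adjusted p = 0.00582). Pax7, the satellite cell factor, stood at 1.58 ± 0.448 and 2.28 ± 0.565 CPM (0.53, adjusted p = 0.0511), and Pax3 was the member lower in SJL (-0.85). In A/J, several of these genes lay between SJL and the other strains: Myog averaged 2.97 CPM in C57BL/6J and 6.15 CPM in DBA/2J, Mymk 0.723 and 0.222 CPM, and Ankrd1 6.57 and 5.08 CPM. Actc1 did not, with a median of 84.3 CPM in A/J against 108 CPM in C57BL/6J (66.6 to 307) and 25.9 CPM in DBA/2J. Myh3 had means of 51.6 CPM in A/J and 43.2 CPM in SJL, with 10.4 CPM in C57BL/6J and 18.5 CPM in DBA/2J.

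The synapse list showed the fetal receptor. Chrng, the acetylcholine receptor subunit of immature and denervated fibres, ranged from 0.32 to 1.57 CPM in A/J and from 3.06 to 8.83 CPM in SJL, without overlap (2.35, adjusted p = 4.03e-06). Chrna1, the subunit shared by fetal and adult receptors, was 0.70 higher, and Chrnd 0.63 higher. In all, 6 of 17 junction genes were higher in SJL and 1 lower, with a median of 0.14.

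Few contractile genes differed. Of 17 fast-fibre genes 1 was higher and 1 lower, of 14 slow-fibre genes 2 and 1, and of 26 genes of excitation and calcium release 2 and 1. Without A/J mice 17 and 32 the counts higher in SJL were 0, 1 and 1, and 2 slow-fibre genes were lower. Myh4, the myosin of the fastest fibres, ranged from 30062 to 49601 CPM in A/J and from 29106 to 37382 CPM in SJL (-0.08, adjusted p = 0.636). Myh2, the myosin of fast oxidative fibres, was lower in SJL with no overlap, 1694 ± 324 against 960 ± 156 CPM (-0.81, adjusted p = 9.84e-05). Casq2, the slow and cardiac calsequestrin, was higher with no overlap, 21.7 ± 3.22 against 34.9 ± 3.05 CPM (0.69, adjusted p = 5.47e-05). The dystrophin complex gave 5 higher and 3 lower of 24, and 1 higher without A/J mouse 30, without A/J mouse 32 or without mice 17 and 32.

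**Figure D3:**
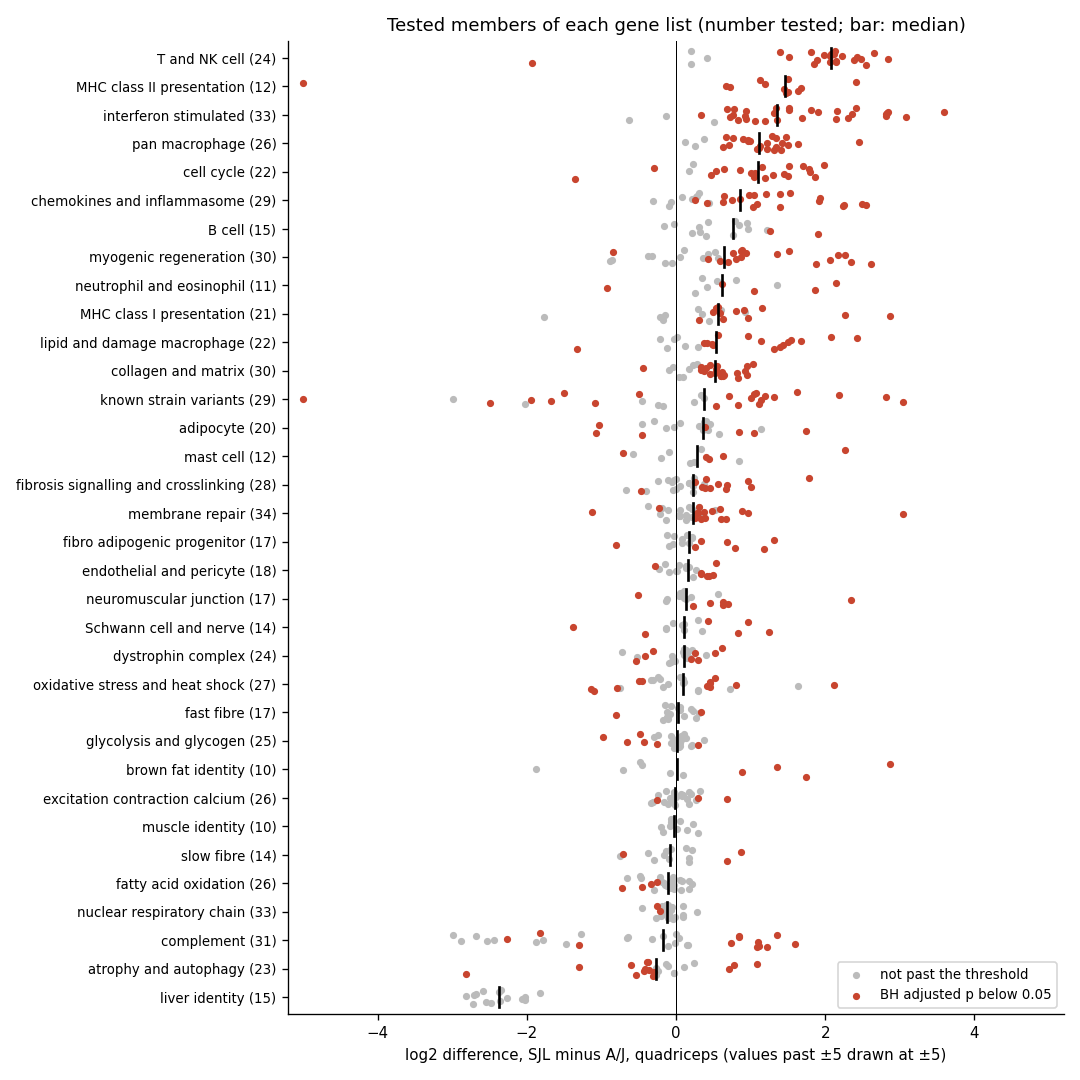
Log2 difference (SJL minus A/J) of every tested member of 34 gene lists, coloured where the adjusted p was below 0.05, with a bar at each list's median. Interferon, pan-macrophage, T and NK cell, MHC class II and cell cycle lists lie to the right, with medians from 1.11 to 2.08, and muscle identity, fibre type and respiratory chain lists lie near 0.

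Macrophage genes were higher in SJL. Of 26 pan-macrophage genes 23 were higher in SJL and none lower, with a median of 1.12, and 16 had no overlap. Their summed level was 503 to 705 CPM in A/J and 879 to 1440 CPM in SJL, against 355 to 838 CPM in C57BL/6J and 366 to 465 CPM in DBA/2J. Ctss, the lysosomal protease cathepsin S, stood at 27.2, 28.9 and 40.1 CPM in A/J and at 69.0, 105 and 134 CPM in SJL (1.64, SE 0.10, adjusted p = 2.28e-08). Cd68, a lysosomal membrane marker of macrophages, ranged from 9.71 to 12.1 CPM and from 20.3 to 40.8 CPM (1.5), and the complement gene C1qa averaged 36.3 ± 5.1 and 85.1 ± 19.6 CPM (1.22). The other 3 genes, which did not pass, are Cd163 (0.26, adjusted p = 0.364), Lyve1 (0.38, adjusted p = 0.118) and Fcgr2b (0.12). Cd163 and Lyve1 are known as markers of resident macrophages, and other such markers of the list were called higher in SJL, Mrc1 (0.76, adjusted p = 0.000364) and Timd4 (0.67, adjusted p = 0.0396). Cd163 averaged 23.4 ± 4.03 CPM in A/J and 28.7 ± 9.98 CPM in SJL.

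Genes of macrophages that clear debris and store lipid gave 15 higher and 1 lower of 22, with a median of 0.53. Lgals3, the galectin of phagocytes in damaged muscle, ranged from 10.8 to 20.3 CPM in A/J and from 32.2 to 63.5 CPM in SJL (1.54, adjusted p = 2.62e-07), with 8.66 CPM in C57BL/6J and 7.25 CPM in DBA/2J. Mmp12, the macrophage elastase, rose from 1.97 ± 0.711 to 11.6 ± 6.68 CPM (2.43), and SJL libraries themselves spread from 4.1 to 22.9 CPM. Ms4a7 was 2.08 higher and Gpnmb, a lysosomal glycoprotein, 1.14 higher. Trem2, the lipid receptor of such macrophages, was 0.57 higher but the call was lost without A/J mice 17 and 32 (adjusted p = 0.0914). Apoe, the lower member, is also made in liver (-1.33, from 1257 ± 1020.3 to 401 ± 102 CPM), and its call was lost without those mice as well (adjusted p = 0.0595). Without the pair the list gave 11 higher and none lower.

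T and NK cell genes were scarce and higher in SJL. Of 24 T and NK cell genes 20 were higher and 1 lower, with a median of 2.08, but most had A/J means below 1 CPM and 5 of those called had no overlap. Cd4, the helper T cell co-receptor, ranged from 0.406 to 1.6 CPM in A/J and from 1.95 to 6.1 CPM in SJL (2.39, adjusted p = 6.54e-06). Nkg7, a cytotoxic granule gene, averaged 0.158 ± 0.0926 and 1.02 ± 0.373 CPM (2.65, edgeR adjusted p = 3.01e-05). Members this low in A/J (Nkg7 at most 0.276 CPM) could pass the count filter only through SJL libraries. A call lower in SJL was therefore hardly open to them, and the count of 20 is to be read with that limit. Cd28, the T cell co-stimulator, was the exception, at 7.72 ± 1.64 CPM in A/J and 2.03 ± 0.64 CPM in SJL (-1.93, edgeR adjusted p = 1.08e-06). Cd247 (0.2), Foxp3 (0.42) and Zap70 (0.2) did not pass, with A/J means of 2.89, 2.2 and 0.933 CPM. The summed level of the list overlapped, with 13.4 to 25.7 CPM in A/J and 17.4 to 40.7 CPM in SJL. With limma on the deposited TPM, 9 of the T and NK genes were called higher. B cell genes gave 2 higher of 15 (13.3%, against 15.9% of all genes) and none lower, Cd22 among them (1.91), and 1 higher without A/J mice 17 and 32.

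Signals that draw and arm these cells were higher in SJL as well. Of 29 chemokine and inflammasome genes 20 were higher and none lower, with a median of 0.86. Ccl2, the chemokine that draws monocytes, ranged from 0.65 to 1.98 CPM in A/J and from 3.98 to 6.7 CPM in SJL (2.24), and Ccl7 from 0.595 to 1.71 and from 2.8 to 6.65 CPM (2.50). Casp1, the protease that matures interleukin 1, was 1.03 higher, and P2rx7, the ATP receptor upstream of it, 1.05 higher. None of these 4 overlapped.

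Of 12 MHC class II genes 11 were higher in SJL, 10 of the 12 without overlap, and 1 was lower. H2-Eb1 stood at 19.2, 22.0 and 29.2 CPM in A/J and at 98.5, 122 and 166 CPM in SJL (2.41, SE 0.11, adjusted p = 1.22e-09). H2-Ab1 (1.68), H2-Aa (1.45) and the invariant chain gene Cd74 (1.47) followed. H2-Ea, the exception, averaged 18.7 ± 4.03 CPM in A/J and 0.282 ± 0.351 CPM in SJL (-6.24, adjusted p = 2.83e-06). The H2 haplotypes of SJL and C57BL/6J are known to lack a working H2-Ea promoter, and C57BL/6J averaged 1.38 CPM against 20.7 CPM in DBA/2J. MHC genes include near-identical copies that share reads, so their values are uncertain. MHC class I and peptide loading genes gave 12 higher and none lower of 21, with a median of 0.56.

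Interferon-stimulated genes gave the highest count called of the 34 lists, 30. Type I interferon, made on sensing nucleic acid, acts through transcription factors that bind a short repeated element in the promoters of these genes. Of 33 tested members 30 were higher in SJL and none lower, with a median of 1.36, and 11 of those called had no overlap. As a share this was 90.9%, next to 91.7% higher in the shorter MHC class II list. Ifit3, an antiviral protein, stood at 1.39, 2.4 and 4.05 CPM in A/J and at 5.33, 20.0 and 38.1 CPM in SJL (3.09, SE 0.28, edgeR adjusted p = 1.97e-06). For this gene A/J was the lowest strain in the median. C57BL/6J ranged from 3.69 to 9.73 CPM (median 4.75) and DBA/2J from 2.81 to 8.02 CPM (median 4.13). Oas2, a sensor of double-stranded RNA, was 2.84 higher, Oas1a 2.83, Ifit1 2.31 and Isg15, the ubiquitin-like modifier, 2.36. Irf7, the factor that amplifies the response, averaged 5.14 ± 2.18 CPM in A/J and 35.6 ± 16.5 CPM in SJL (2.81, adjusted p = 0.000154). Siglec1, the sialoadhesin that interferon induces on macrophages, ranged from 1.54 to 5.72 CPM and from 6.44 to 34.7 CPM (2.82).

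SJL mice differed among themselves in this response. The median over the list, as log2(CPM + 0.5) above the A/J mean, was 0.35 in SJL mouse 54 and 0.99 to 1.74 in the other 7 SJL libraries, and from -0.52 to 0.4 in A/J. By this median mouse 54 lay inside the A/J range, while mouse 53, the other SJL mouse on the Mediterranean diet, was at 1.55. The members were split in mouse 54. Ifi44 (-0.29) and Oas3 (-0.11) were below the A/J mean, but Igtp (1.5) and Gbp2 (1.28) were higher than in any other SJL library. In mouse 54, Irf7 was 4.89 CPM, inside the A/J range of 2.85 to 9.94, while Cd68 was 22.9 CPM, above every A/J library. The members that did not pass were Gbp4 (-0.63), Iigp1 (-0.13) and Bst2 (0.51), and for Gbp4 A/J libraries themselves ranged from 9.19 to 69.5 CPM. Without A/J mice 17 and 32 the count was 29 of 33.

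**Figure D4:**
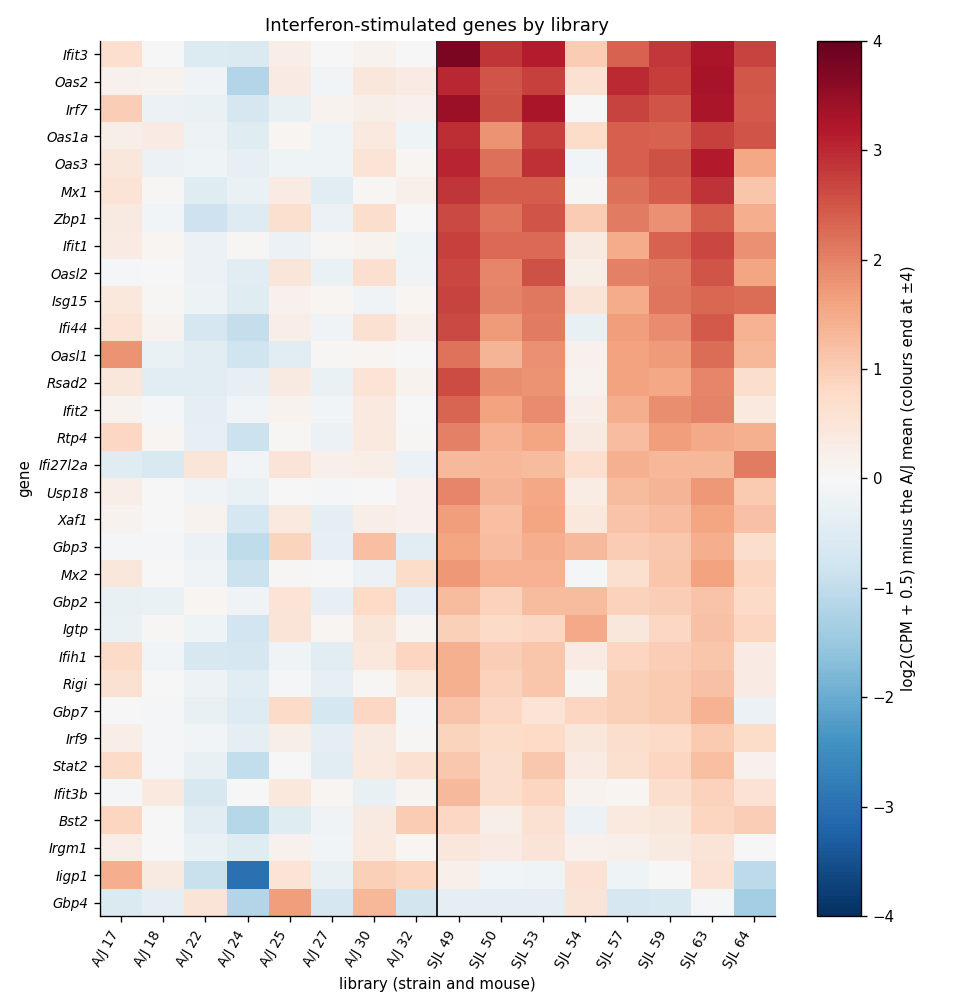
Each row is 1 of 32 of the 33 interferon-stimulated genes and each column 1 quadriceps library; colour gives log2(CPM + 0.5) minus the A/J mean. SJL mouse 54 is paler than the other SJL libraries in the median over all 33 genes (0.35 against 0.99 to 1.74), but not at Igtp and Gbp2.

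The promoters of 4 of these genes are printed because they hold the element on which the pathway acts. Each run is the 200 bases before the start site in RefSeq (GRCm38.p6, C57BL/6J reference), 5′ to 3′ on the strand of the gene, and capitals mark 2 boxes of GAAA set 2 free bases apart, on either strand (TTTC boxes where they lie on the other), with overlapping matches joined.
Ifit3, chr19:34583329-34583528, plus strand: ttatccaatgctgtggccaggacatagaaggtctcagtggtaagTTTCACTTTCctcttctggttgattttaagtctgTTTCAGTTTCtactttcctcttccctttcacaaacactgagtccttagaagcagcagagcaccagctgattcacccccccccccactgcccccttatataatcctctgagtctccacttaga
Ifit1, chr19:34640689-34640888, plus strand: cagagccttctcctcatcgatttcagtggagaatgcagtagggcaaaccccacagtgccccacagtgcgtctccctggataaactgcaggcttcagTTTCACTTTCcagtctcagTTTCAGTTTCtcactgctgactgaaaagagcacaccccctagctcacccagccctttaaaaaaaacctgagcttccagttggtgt
Isg15, chr4:156200819-156201018, minus strand: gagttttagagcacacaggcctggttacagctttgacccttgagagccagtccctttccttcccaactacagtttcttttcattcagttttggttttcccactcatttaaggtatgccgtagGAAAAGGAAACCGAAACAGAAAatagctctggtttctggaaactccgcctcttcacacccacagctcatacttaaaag
Oas1a, chr5:120907526-120907725, minus strand: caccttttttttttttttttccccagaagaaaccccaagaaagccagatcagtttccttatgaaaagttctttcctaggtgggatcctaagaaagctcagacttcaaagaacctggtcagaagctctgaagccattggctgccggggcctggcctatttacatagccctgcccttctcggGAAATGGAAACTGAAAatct
The matches began 156 and 122 bases before the start in Ifit3 and 104 and 85 bases before it in Ifit1, and lay closer in Oas1a, where they ran into each other. Over windows of 300 bases (250 before to 50 after the start), 15 of the 22 list genes with a RefSeq promoter held the element (68.2%), against 3.93% of 12587 genes tested and 3.99% of 27025 genes in the table. Irf7 held none in its window. A match is a description of letters, and the A/J and SJL sequences were not read.

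Matrix genes were higher in SJL. Of 30 collagen and matrix genes 22 were higher in SJL and 1 lower, with a median of 0.53, and 14 were higher without A/J mice 17 and 32. Col3a1, the fibrillar collagen of early scar, stood at 383, 415 and 647 CPM in A/J and at 739, 865 and 1109 CPM in SJL (0.95, adjusted p = 8.23e-05). Postn, periostin of injured tissue, averaged 22.5 ± 3.43 and 44.5 ± 11.1 CPM (0.95). Col1a1 was 0.63 higher, a call lost without the 2 mice (adjusted p = 0.0604). Fmod, a collagen-binding proteoglycan, was the lower one (-0.44).

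Genes of fibrosis signalling gave 11 higher and 1 lower of 28. Timp1, an inhibitor of matrix proteases, was at 3.91 ± 0.8 CPM in A/J and 13.7 ± 4.78 CPM in SJL (1.79, adjusted p = 4.66e-06), with 1.18 CPM in C57BL/6J and 0.9 CPM in DBA/2J. Tgfb1, the main fibrogenic growth factor, rose from 7.27 ± 1.63 to 13.9 ± 1.52 CPM (0.96). Fibro-adipogenic progenitor genes gave 6 higher and 1 lower of 17 (4 and none without A/J mice 17 and 32), with Ly6a, the Sca-1 antigen whose level also varies by strain, 1.32 higher. Adipocyte genes gave 4 higher and 3 lower of 20.

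Genes of dividing cells were higher in SJL in 18 of 22 cases and lower in 2, with a median of 1.11. Top2a, which untangles replicated DNA, ranged from 0.92 to 2.13 CPM in A/J and from 3.73 to 6.43 CPM in SJL (1.71), and Mki67, the Ki-67 antigen, from 0.935 to 2.43 and from 3.32 to 9.23 CPM (1.78). Tpx2, a spindle factor, was 1.98 higher, though C57BL/6J (8.72 CPM) and DBA/2J (6.6 CPM) were also above A/J (2.71 CPM) for this gene. Aurka, its kinase partner, went the other way, 22.0 ± 4.15 against 8.55 ± 1.05 CPM (-1.35, adjusted p = 3.5e-07), and Pcna was the other lower one (-0.29), a call lost without A/J mice 17 and 32 (adjusted p = 0.0589). With limma on TPM, which kept genes of at least 1 TPM, 9 were called higher.

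Genes of muscle wasting were on balance lower in SJL: 11 of 23 lower, 3 higher, with a median of -0.27 (8 lower and 2 higher without A/J mice 17 and 32). Klf15, a glucocorticoid-induced factor, stood at 31.6, 43.5 and 52.6 CPM in A/J and at 13.0, 17.4 and 25.6 CPM in SJL, without overlap (-1.30, adjusted p = 1.32e-06). Mstn, the growth inhibitor myostatin, fell from 56.2 ± 8.96 to 37.3 ± 7.35 CPM (-0.60). The ubiquitin ligases Trim63 (-0.38) and Fbxo32 (-0.43) were lower too, and both missed the threshold with limma on TPM, where 3 of the list were lower. Ddit4, a stress gene that restrains mTOR, had a wide spread in A/J, from 5.2 to 116 CPM, against 3.14 to 11.9 CPM in SJL (-2.81). Arrdc2, also glucocorticoid-responsive, ranged from 9.45 to 222 CPM in A/J and from 3.4 to 11.2 CPM in SJL (-4.09).

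Few genes of energy metabolism differed. Of 33 nuclear respiratory chain genes none was higher and 2 were lower in SJL, with a median of -0.12, but 18 were lower without SJL mouse 64. Ndufs1, a core subunit of complex I, averaged 432 ± 38.6 and 372 ± 23.1 CPM (-0.21, edgeR adjusted p = 0.0378). Its call was lost with limma on TPM (-0.06, limma adjusted p = 0.701) and with all 32 quadriceps libraries (-0.19, edgeR adjusted p = 0.122). Leaving out single libraries lost it in several cases as well. Fatty acid oxidation gave 4 lower of 26 and none higher, and glycolysis 5 lower and 1 higher of 25. Ugp2, which makes the sugar donor of glycogen, fell from 675 ± 68.8 to 484 ± 45.1 CPM without overlap (-0.48), and Car3, the carbonic anhydrase of slow fibres and fat, from 1369 ± 356 to 646 ± 78.2 CPM (-1.07).

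Brown fat genes appeared in several muscle libraries. Ucp1, the uncoupling protein of brown fat, ranged from 2.76 to 187 CPM in A/J (median 11.6) and from 60.5 to 169 CPM in SJL (median 133), a log2 difference of 2.87 (adjusted p = 0.0104) with overlap through A/J mice 22 and 24. Dio2, which activates thyroid hormone, was 0.88 higher. The brown fat list gave 4 higher of 10 and none lower, with a median of 0.01, and 2 higher without A/J mice 17 and 32. Whether brown fat was taken with the muscle was not tested.

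Other cell types that quadriceps can hold gave smaller counts. Neutrophil and eosinophil genes were higher in SJL in 4 of 11 cases and lower in 1, mast cell genes in 4 of 12 and 1, endothelial and pericyte genes in 6 of 18 and 1, and Schwann cell and nerve genes in 4 of 14 and 2. Genes of oxidative stress and heat shock gave 7 higher and 5 lower of 27. Without A/J mice 17 and 32 the counts higher in SJL were 2 for neutrophils and eosinophils, 2 for mast cells, 3 for endothelium and pericytes, 2 for Schwann cells and nerve (with 1 lower) and 3 for oxidative stress and heat shock. Complement genes gave 9 higher and 3 lower of 31, with a median of -0.17, and many of them are made mostly in liver. Of 29 genes known to vary between inbred strains, 14 were higher in SJL and 7 higher in A/J.

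The genes with the largest differences were mostly outside these lists. Among protein-coding genes of at least 5 CPM, called with 1 sign under all 4 diets and without overlap, Tmem232 led those higher in SJL, from 0.184 ± 0.102 to 11.6 ± 3.74 CPM (5.97, adjusted p = 3.35e-09). DBA/2J was also high for it (11.3 CPM) and C57BL/6J was not (0.313 CPM). Sumf2, a sulfatase-modifying factor, was 2.77 higher in SJL (69.5 CPM), but C57BL/6J (72.3 CPM) and DBA/2J (59.6 CPM) were alike and A/J stood apart with 8.32 to 13.7 CPM. Cbr2, a carbonyl reductase, was 2.41 higher, from 27.9 ± 6.47 to 148 ± 36.1 CPM.

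On the A/J side, Slc28a1, a nucleoside transporter, had the largest difference (-6.84), though A/J libraries ranged from 0.552 to 34.2 CPM. Htatip2 stood at 9.76 ± 1.76 CPM in A/J and 1.09 ± 0.353 CPM in SJL (-3.16, adjusted p = 2.45e-08). Tbc1d1, the regulator of glucose transporter traffic that is known to be mutated in SJL, was at 25.8, 37.8 and 43.5 CPM in A/J and at 4.49, 6.9 and 8.47 CPM in SJL (-2.45, SE 0.13, adjusted p = 9.82e-09). Cd55, the shield against complement on cell surfaces, was at 61.1, 69.2 and 85.7 CPM in A/J and at 12.5, 14.6 and 17.1 CPM in SJL, the tightest of these (-2.27, SE 0.07, adjusted p = 3.16e-11). C57BL/6J (47.7 CPM) and DBA/2J (58.3 CPM) were near A/J. C3ar1 and Itgb2, which encode receptors for complement fragments on phagocytes, were 1.6 and 1.35 higher in SJL. Glo1, whose copy number is known to vary between strains, was at 343 ± 49.1 and 89.0 ± 16.5 CPM (-1.95). Rpl34 (-2.62) has near-identical copies in the genome that share its reads, so its value is uncertain.

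The same strains differed in other tissues as well. The contrast called 28.3% of genes in liver, 23.6% in brown fat, 30.4% in subcutaneous fat and 6.05% in visceral fat. Of 4350 genes called in quadriceps and tested in all 4 other tissues, 293 (6.74%) were called in the same direction in all of them, and 2529 of the 5426 were called the same way in none. The strain difference in quadriceps minus that in liver passed for 3705 of 20888 genes (17.7%), and that minus brown fat for 2176 of 20739 (10.5%).

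Cd55 differed by more in muscle than in liver or brown fat. It did not pass in liver (-0.19), brown fat (0.38), subcutaneous (-0.07) or visceral fat (-0.57), and the difference minus liver was -2.14 (edgeR adjusted p = 4.08e-13) and minus brown fat -2.66 (edgeR adjusted p = 5.56e-09). Among the regeneration genes, Myl4 also passed both tests (minus liver 2.25, minus brown fat 2.19). Htatip2 changed direction, with 1.35 in liver and -4.58 for muscle minus liver (edgeR adjusted p = 1.01e-14). Tbc1d1 was lower in SJL in all 5 tissues and by more in muscle (minus liver -1.24, adjusted p = 9.04e-06). Sumf2 did not pass in liver (0.09), and the difference minus liver was 2.61.

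Lists differed in how far they went beyond muscle. For interferon genes 11 were higher in SJL in liver and 1 lower, 27 in brown fat, none in subcutaneous fat and 9 in visceral fat, and the difference minus liver passed for 21 of 33. Ifit3 was 0.66 higher in liver, 2.24 in brown fat and 1.30 in visceral fat, and 2.36 higher for muscle minus liver (adjusted p = 1.27e-05). Pan-macrophage genes gave 16 higher and 2 lower in liver and 17 higher in brown fat, but 4 higher and 12 lower in subcutaneous fat, and the difference minus liver passed for 16 of 26. Cell cycle genes were higher in brown fat in 17 cases, where Mki67 was 1.98 higher (muscle minus brown fat -0.21, adjusted p = 0.799). Collagen genes were the reverse in subcutaneous fat, with 1 higher and 26 lower. Regeneration genes passed minus liver in 7 of 30, and genes of muscle wasting in 2 of 23. Only 13 of the 30 regeneration genes passed the count filter in liver itself. For the others the liver side rested on few counts, so the 7 of 30 cannot show how many differences liver shares. Of these 23 wasting genes, 7 were lower in SJL in liver, 5 in brown fat, 7 in subcutaneous fat and 3 in visceral fat. None was higher in SJL in those tissues.

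**Figure D5:**
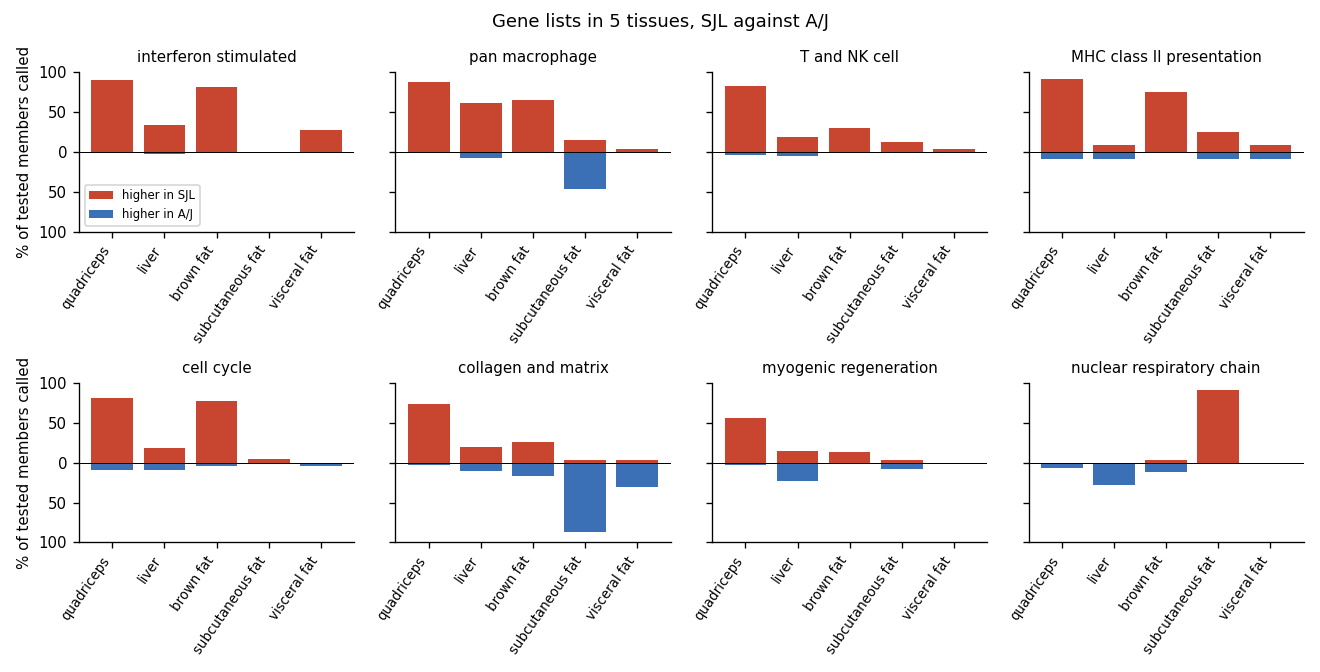
Percent of tested members called higher in SJL (up, red) or higher in A/J (down, blue) in 5 tissues, for 8 gene lists. Interferon, MHC class II and cell cycle lists were high in SJL in quadriceps and brown fat, and collagen genes were low in SJL in subcutaneous fat (26 genes) where they were high in quadriceps (22 genes).

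Few genes differed by diet in these libraries. With edgeR no gene was called for diet (1084 at an unadjusted p under 0.05, smallest adjusted p = 0.787), and DESeq2 called 22. No gene was called for a strain difference that varied with diet (1504 at an unadjusted p under 0.05, smallest adjusted p = 0.272), where DESeq2 called 412. Of the 5426 genes called between strains, 4864 had the same sign under all 4 diets. The same libraries gave the calls and the signs, so this count is not a separate test of diet. Each strain and diet had 2 mice.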

How the data were processed

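RNA-seq was made from 5 tissues of male mice, and the quadriceps libraries of A/J and SJL mice (8 separate mice each, grouped by strain in the labels) were compared. Reads were trimmed with Trim Galore and aligned with HISAT2 to GRCm39, with a relaxed mismatch penalty for A/J, SJL and DBA/2J but not for C57BL/6J (per the design text of the series and the submitters' processing notes, where no tool version is stated). As estimated counts, the authors deposited per-gene HTSeq values made with fractional alignments, per the same design text (74.4% of non-zero values were whole within 1e-06), and these were rounded here. The authors also deposited TPM, which served for 1 alternative only and whose gene lengths no label states. Of 56980 gene IDs, 56236 were named in GENCODE vM39. All count columns were matched to a sample.

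Genes were filtered with filterByExpr (minimum count 10, minimum total 15) and tested in edgeR 4.0.16 (R 4.3.3) by the robust quasi-likelihood test with TMM scaling, strain and diet as terms, and Benjamini-Hochberg adjustment. SE is the log2 difference over the square root of F. Levels are CPM scaled by TMM over all 32 quadriceps libraries. Differences between tissues came from a joint fit over both tissues. On simulated counts for 19033 genes, 12 of 47 genes changed 1.5-fold, 44 of 48 changed 2-fold, 47 of 47 changed 4-fold and 49 of 49 changed 8-fold were recovered, with 1.9% false among those called. The simulation gave all genes the same spread between mice and changed far fewer genes than were called here. It held no liver transcripts particular to single libraries and no library that stood apart. The 1.9% is therefore not an error rate for the real libraries.

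The alternatives were RLE scaling, no filter, DESeq2 1.42.0, limma 3.58.1 on TPM, Alb or Adipoq as covariates, all 32 libraries, no A/J mice 17 and 32, leaving out each library, and the mouse as a block. The labels give the mouse of each library, so quadriceps and the other tissue could be paired by mouse. The printed differences between tissues and their p-values came from the fit without this pairing, which only the replicate block used. Over 16 mice the deviations from group means correlated at -0.15 to 0.31 (median 0.08) between quadriceps and liver and at -0.6 to 0.75 (median 0.15) between quadriceps and brown fat. With the mouse as a replicate block, 2753 genes passed for quadriceps minus liver (3705 without it) and 1693 for quadriceps minus brown fat (2176 without it).

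The comparison, the 34 gene lists and the rules were chosen with earlier results of these data known. The text names protein-coding genes that averaged 5 CPM or more and were called without overlap and with 1 sign in 4 diets (the 15 largest differences each way), up to 4 genes of smallest adjusted p per list, all genes of the membrane repair and strain variant lists, up to 5 genes for strain by diet, and the 10 largest differences each way of muscle minus liver. Not all of these are printed, and other genes were named after their values were seen. Of the interferon list, 1 gene is not reported here by name and was left out of the plot, but stays in the counts.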

Additional observations from a re-analysis of the deposited data

Results flagged for a closer look

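The strain difference in quadriceps differed from that in liver for 3705 genes and from that in brown fat for 2176 genes, by edgeR's test of the difference between tissues. In the genes that follow, the value is the log2 strain difference (SJL minus A/J) in quadriceps minus that in liver. Its sign is not always the direction in muscle: Camk2b (-0.26) and Cdkn1a were lower in SJL quadriceps, and Sertad4 was higher. Those further toward SJL in quadriceps than in liver were Tmem232 (6.22), Mme (4.75), Acot11 (4.74), Ucp1 (4.12), Camk2b (4.05), Itih5 (3.63), Cdkn1a (3.43), Slc15a5 (3.34), Actc1 (2.86) and Gas7 (2.78). Those further toward A/J in quadriceps than in liver were Cyp2c23 (-5.53), Htatip2 (-4.58), Cyp2f2 (-3.86), Cd5l (-3.69), Sertad4 (-3.63), Clec4f (-3.6), Apoa4 (-3.3), Upb1 (-3.3), Gnmt (-3.29) and Hs3st5 (-3.16). Cyp2c23, Cyp2f2, Apoa4, Gnmt and Upb1 are known as liver genes, and Cd5l and Clec4f as genes of liver macrophages, so the liver transcripts in A/J quadriceps bear on them, and their part was not tested.

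Single mice stood far from the other 7 of their strain at some genes, by a test of the gap that chance passes in about 1 of 20 groups. SJL mouse 64 was the highest of its group for Cd74 (366.6 CPM), Cbr2 (232.1 CPM), Anxa2 (160.3 CPM), Sumf2 (130.9 CPM), Glo1 (125.9 CPM), Rpl34 (28.55 CPM), Timp1 (23.9 CPM), Tmem232 (19.81 CPM), Pax3 (1.411 CPM) and H2-Ea (1.047 CPM), and the lowest for Ano5 (88.97 CPM). SJL mouse 57 was the highest for Myh3 (101.4 CPM), Ddit4 (11.94 CPM) and Arrdc2 (11.15 CPM). SJL mouse 59 was the lowest for Capn3 (65.66 CPM) and the highest for Slc28a1 (0.5004 CPM), and SJL mouse 50 was the lowest for Ucp1 (60.48 CPM). Among A/J mice, mouse 25 was the highest for Mmp12 (3.594 CPM) and Ccl7 (1.711 CPM), mouse 24 for Fmod (442.1 CPM), mouse 32 for Glo1 (453.1 CPM), mouse 17 for Irf7 (9.944 CPM), mouse 18 for Myh8 (411.0 CPM) and mouse 22 for Ucp1 (186.6 CPM).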

How the results depend on the processing

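Of 5426 genes called between the strains, RLE scaling gave 5395, no filter 4830, DESeq2 6616, limma on TPM 4474, Alb as a covariate 4747, all 32 quadriceps libraries 4522 and the fit without A/J mice 17 and 32 gave 4483. With Adipoq, the adipocyte hormone gene, as a covariate the count was 2314, with 1472 higher in SJL and 842 higher in A/J (Adipoq stood at 30.8 ± 11.9 CPM in A/J and 44.7 ± 7.8 CPM in SJL, edgeR adjusted p = 0.0561). With limma on TPM 966 genes were higher in A/J. The cause of these moves was not tested. For strain by diet, where 0 genes were called, no filter gave 1708, DESeq2 gave 412, and leaving out 1 library gave 0 to 37 (37 without A/J mouse 18, 18 without SJL mouse 63, 1 without A/J mouse 32). For diet DESeq2 gave 22, and for visceral fat 2144 against 1316. The replicate block gave 2753 genes for quadriceps minus liver and 1693 for quadriceps minus brown fat. DESeq2 was not run for those differences. None of the results computed under these alternatives reversed, and of 186 named genes that were called, 113 passed in every alternative. Precision is limited by 8 mice per strain and by low counts for lymphocyte and cell cycle genes. By list, membrane repair genes higher in SJL were 6 with Adipoq as a covariate, and wasting genes lower in SJL were 4 with it and 7 with all 32 libraries. Complement genes higher in A/J were 13 without A/J mouse 24.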
